A study of Homo sapiens with 6 samples.

Results

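The amino acid transporters described here are the genes of the SLC1, SLC3, SLC6, SLC7, SLC36, SLC38 and SLC43 families, taken by symbol alone as SLC1A, SLC3A, SLC6A, SLC7A, SLC36A, SLC38A or SLC43A followed by a number. The tables of 21625 genes held 50 such genes in 7 families, and the rule that takes them reads the symbol and no measured value. All values come from CHL-1, an established melanoma cell line, in which mRNA was sequenced to ask which genes depend on the *EWSR1::CREM* fusion that the line carries. Cells of 3 libraries received CREM siRNA, a pool directed at the DNA-binding domain of CREM, and cells of the other 3 libraries received Control siRNA, a mix of 3 non-targeting siRNAs. Both arms were transfected with Dharmafect 4 at 50 nM, kept in DMEM with serum, glutamine, penicillin and streptomycin, and harvested after 48 h. The labels call the genotype of the control cells WT, although CHL-1 cells carry the fusion in both arms. The siRNA pool removes fusion and wild-type CREM transcripts alike, so that values per gene cannot part their loss, and a single cell line was used. Triplicate experiments are named for the libraries, but whether these were separate cultures on separate days is not stated, and p-values measure only the spread between these libraries.

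Amino acid transporters carry amino acids across the plasma membrane or the membranes of lysosomes, and tumour cells depend on them for protein synthesis, nitrogen and signalling through mTORC1. Exchangers of the SLC7 family work as light chains bound to an SLC3 heavy chain and trade one amino acid for another. Many carriers of the SLC1, SLC6 and SLC38 families use the sodium gradient to load the cell, although SLC1A4 is an exchanger and SLC38A7 acts at the lysosome. Several of these genes are also known targets of ATF4, the transcription factor of the amino acid response, which binds sites related to the cAMP response element to which CREM and its relatives CREB1 and ATF1 bind.

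CREM itself was at 2.55 ± 0.169 RPKM (reads scaled to gene length and library size, mean ± SD, n = 3) after CREM siRNA and at 45.4 ± 1.75 RPKM after Control siRNA (log2 fold change -3.71, adjusted p = 3.43e-12 from limma). The CREM siRNA libraries held 23793186 to 29793837 reads and the Control siRNA libraries 17221794 to 24341121. Of 8 melanocyte lineage markers 5 averaged at least 1 RPKM, and the summed level of all 8 was 922 to 950.1 RPKM after CREM siRNA and 393 to 430.0 RPKM after Control siRNA, while MLANA, TYR and TYRP1 averaged under 1 RPKM. Replicate 3 of both groups stood apart in 3 of these markers. MLANA had 31 reads in CREM siRNA replicate 3 and 14 reads in Control siRNA replicate 3, and TYR had 17 and 2 reads in the same 2 libraries, with no read of either gene in the other 4. PMEL was at 0.372, 0.814 and 8.35 RPKM in the CREM siRNA libraries, against 0.636, 0.610 and 1.94 RPKM in the Control siRNA libraries. Among other markers, 3 mesenchymal genes (VIM, CDH2 and FN1) summed to 430 to 443 RPKM after CREM siRNA and 283 to 295 RPKM after Control siRNA. All 3 were higher with an adjusted p under 0.05 from limma, as were 36.6% of all genes tested. Markers of other cells were low, and 3 leukocyte genes summed to 0.120 to 0.258 RPKM after CREM siRNA and 1.25 to 1.52 RPKM after Control siRNA. Most of this was PTPRC in every library and the rest was CD14, with no CD3E read in any library. Of 6 epithelial markers only KRT18 averaged at least 1 RPKM, at 1.43 RPKM after CREM siRNA and 2.61 RPKM after Control siRNA, and PECAM1 had no read. The part of these marker levels in the results below was not tested.

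The promoters of the carrier genes with the largest changes are shown first, since the targeted factor binds DNA (SLC6A19, SLC7A5, SLC38A1, SLC1A4, SLC38A7 and SLC1A3), together with SLC3A2 and SLC7A1 because each holds 2 of the motifs searched. Windows were taken from RefSeq (GRCh38.p14) and run 5′ to 3′ on the gene's strand, 250 bases before and 50 bases from the annotated start, so that the start is the base after the first 250. Windows existed for 39 of the 50 genes, and for 21 of the 28 that were tested; SLC6A12, SLC7A2, SLC7A11, SLC6A6, SLC6A15, SLC43A3, SLC38A3, SLC3A1, SLC6A3, SLC7A4 and SLC1A2 are named only. Capitals mark the letters TGACG, the core site of the cAMP response element, or TGATGNAAN, the amino acid response element, on either strand.
SLC6A19: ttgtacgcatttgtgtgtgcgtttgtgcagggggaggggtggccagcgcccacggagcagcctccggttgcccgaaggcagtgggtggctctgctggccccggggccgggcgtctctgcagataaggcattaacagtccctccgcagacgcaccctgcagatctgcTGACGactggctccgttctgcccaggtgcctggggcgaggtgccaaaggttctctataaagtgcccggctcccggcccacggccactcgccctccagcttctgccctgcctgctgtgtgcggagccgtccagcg
SLC7A5: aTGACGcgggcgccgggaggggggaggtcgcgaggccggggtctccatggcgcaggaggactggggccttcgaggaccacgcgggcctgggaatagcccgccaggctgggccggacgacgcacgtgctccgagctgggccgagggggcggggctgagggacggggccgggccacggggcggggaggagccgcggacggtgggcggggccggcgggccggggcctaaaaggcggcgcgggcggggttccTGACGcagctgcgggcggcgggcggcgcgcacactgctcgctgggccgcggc
SLC38A1: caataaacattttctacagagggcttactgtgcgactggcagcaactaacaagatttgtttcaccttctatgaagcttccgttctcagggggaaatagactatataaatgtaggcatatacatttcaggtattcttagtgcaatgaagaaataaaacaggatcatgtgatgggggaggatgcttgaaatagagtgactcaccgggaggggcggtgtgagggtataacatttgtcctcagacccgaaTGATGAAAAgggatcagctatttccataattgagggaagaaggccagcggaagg
SLC7A1: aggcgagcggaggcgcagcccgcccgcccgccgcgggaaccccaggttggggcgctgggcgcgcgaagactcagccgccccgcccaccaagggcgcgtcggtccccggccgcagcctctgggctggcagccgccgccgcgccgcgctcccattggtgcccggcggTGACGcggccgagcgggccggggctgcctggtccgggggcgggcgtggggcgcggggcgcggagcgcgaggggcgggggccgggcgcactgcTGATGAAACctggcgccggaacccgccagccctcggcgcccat
SLC3A2: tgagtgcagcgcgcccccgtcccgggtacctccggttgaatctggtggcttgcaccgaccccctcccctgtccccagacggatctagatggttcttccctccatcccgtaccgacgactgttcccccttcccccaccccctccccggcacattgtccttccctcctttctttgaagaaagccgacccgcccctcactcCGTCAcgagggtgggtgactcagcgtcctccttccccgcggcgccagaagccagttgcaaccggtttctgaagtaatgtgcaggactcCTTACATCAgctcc
SLC1A4: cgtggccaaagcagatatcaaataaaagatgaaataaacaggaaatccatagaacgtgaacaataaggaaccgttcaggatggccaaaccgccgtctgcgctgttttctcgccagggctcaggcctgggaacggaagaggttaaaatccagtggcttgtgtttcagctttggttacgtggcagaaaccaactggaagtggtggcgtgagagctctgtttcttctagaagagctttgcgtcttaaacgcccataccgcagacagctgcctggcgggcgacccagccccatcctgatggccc
SLC38A7: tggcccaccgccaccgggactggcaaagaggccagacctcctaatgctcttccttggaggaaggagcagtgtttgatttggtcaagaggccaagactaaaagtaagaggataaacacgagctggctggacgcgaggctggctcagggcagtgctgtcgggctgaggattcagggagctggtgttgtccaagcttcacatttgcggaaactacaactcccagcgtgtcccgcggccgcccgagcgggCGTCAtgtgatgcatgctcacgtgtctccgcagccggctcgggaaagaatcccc
SLC1A3: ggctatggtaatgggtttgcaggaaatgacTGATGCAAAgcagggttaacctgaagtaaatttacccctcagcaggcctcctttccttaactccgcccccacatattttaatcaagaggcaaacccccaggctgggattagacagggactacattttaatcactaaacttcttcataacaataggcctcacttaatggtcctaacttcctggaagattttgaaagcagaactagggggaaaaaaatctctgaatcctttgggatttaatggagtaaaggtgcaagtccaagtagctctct
The window of SLC6A19 lies on the plus strand at chr5:1201345-1201644, that of SLC7A5 on the minus strand at chr16:87869458-87869757, and that of SLC38A1 on the minus strand at chr12:46266467-46266766. The window of SLC7A1 lies on the minus strand at chr13:29595639-29595938, and that of SLC3A2 on the plus strand at chr11:62881449-62881748. The window of SLC1A4 lies on the plus strand at chr2:64988229-64988528 and that of SLC38A7 on the minus strand at chr16:58684721-58685020. That of SLC1A3 lies on the plus strand at chr5:36596338-36596637. For SLC3A2 and SLC38A1 the window belongs to a start inside the annotated gene, not to its outermost start.

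The full palindrome TGACGTCA was in none of the 39 windows, and it is in 1.85% of 35116 promoter windows of the same length. The core site TGACG, whose letters are also the first part of the palindrome, was in 17 of 39 windows (43.6%), against 24.6% of all promoter windows. The carrier genes were read in 1 window per gene, whereas the background took all windows with no such limit. The shares may thus not be on the same unit. Of the 12 tested carrier genes with a core site, 5 were higher after CREM siRNA, 5 were lower and 2 did not pass the test. Of all genes tested with limma, 36.6% were higher, 36.7% were lower and 73.4% passed in either direction. SLC7A5 held 2 core sites, 1 of them across its start. The letters TGATGNAAN were in 4 windows (10.3%), against 3.61% of all promoter windows. SLC3A2, SLC7A1 and SLC38A1, which were lower after CREM siRNA, held this motif, and so did SLC1A3, which was higher. These matches describe letters in a window and do not show binding.

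CREM knockdown changed most of the carrier genes that were expressed, in both directions. Of the 50 genes, 28 averaged at least 1 RPKM over the 6 libraries and were tested with limma, and 25 of these passed an adjusted p under 0.05, against 73.4% of all 12407 genes tested. The number higher after CREM siRNA was 14 (background 36.6%) and the number lower was 11 (background 36.7%), while SLC38A2, SLC36A1 and SLC43A1 did not pass. A log2 fold change of at least 1 in size was reached by 7 of the 28, against 14.6% of all genes tested. SLC1A4, SLC38A7 and SLC1A3 rose by that much, and SLC6A19, SLC7A5, SLC38A1 and SLC6A12 fell by that much. That number rests on the pseudocount of 1, since with a pseudocount of 0.1 it was 10 of the same 28, with SLC6A16 added to those that rose and SLC7A1 and SLC1A1 to those that fell. With replicate 3 of both groups left out, 14 were again higher and 11 lower, and 2 rose and 5 fell by at least 1. The median size of the log2 fold change was 0.70 among the tested carrier genes and 0.35 among all genes tested. The libraries of the 2 groups did not overlap for 27 of the 28 genes, against a background of 76.2%. SLC6A19 and SLC38A3 reached the 1 RPKM minimum in only 1 of the 2 groups, and the other 22 genes were left out of this test by the filter, so these counts describe the genes that passed the filter and not the families as a whole. In bulk RNA, fewer cells that express a gene and less RNA of it per cell cannot be told apart.

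**Figure D1:**
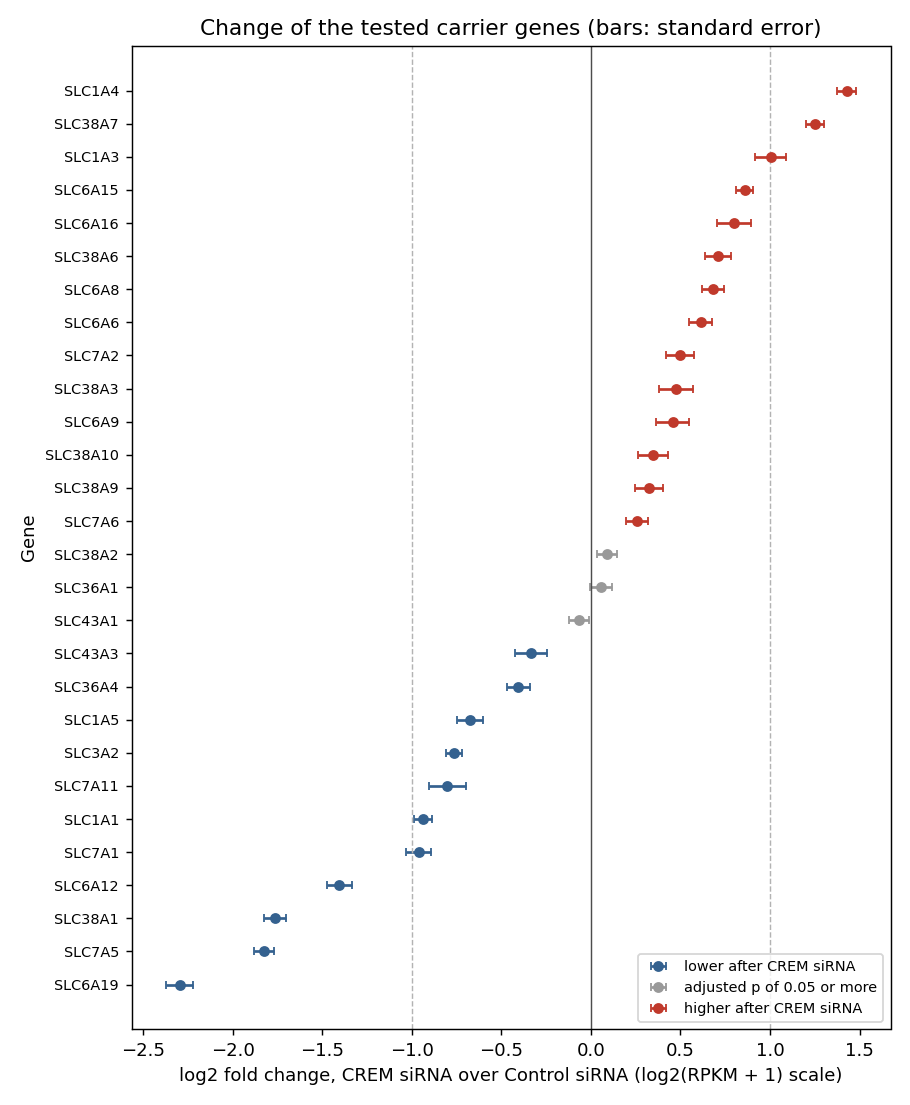
Log2 fold change, CREM siRNA over Control siRNA on the log2(RPKM + 1) scale, of the 28 carrier genes tested (points) with limma's standard error (bars); dashed lines mark a size of 1. SLC1A4 is at the top with 1.43 and SLC6A19 at the bottom with -2.30, and the 3 grey points at the middle are the genes that did not pass.

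All 50 genes together summed to 821, 757 and 799.6 RPKM in the CREM siRNA libraries, against 958, 929.6 and 916 RPKM in the Control siRNA libraries, which did not overlap. With libraries scaled to GAPDH, which the paper names for its own normalization, or to other reference genes, the summed levels of the 2 groups overlapped. These 2 choices raise the median log2 fold change of all genes by 0.18. GAPDH itself was at 724 ± 60.3 RPKM after CREM siRNA and 827 ± 21.7 RPKM after Control siRNA. SLC7A5 made up 8.71% of the summed RPKM after CREM siRNA and 26.4% after Control siRNA, whereas SLC1A4 made up 24.8% after CREM siRNA and 7.73% after Control siRNA. By RPKM, SLC1A4 was the highest of the 50 genes after CREM siRNA and SLC7A5 the fourth, while after Control siRNA SLC7A5 was the highest and SLC1A4 the fourth.

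By family, the SLC7 genes summed to 152 ± 9.90 RPKM after CREM siRNA and 344 ± 19.4 RPKM after Control siRNA (SD, n = 3 each). The SLC1 genes summed to 269 ± 15.0 RPKM after CREM siRNA and 187 ± 2.03 RPKM after Control siRNA, and the SLC6 genes to 123 ± 1.73 RPKM after CREM siRNA and 86.2 ± 3.89 RPKM after Control siRNA. The SLC7 sum was lower, and the SLC1 and SLC6 sums were higher, in every CREM siRNA library than in every Control siRNA library under each of the 3 other scalings as well. Single genes weighed heavily in the SLC7 and SLC1 sums. SLC7A5 alone was at 69.0 RPKM after CREM siRNA and 247 RPKM after Control siRNA, and SLC1A4 alone at 196 and 72.2 RPKM. Of the other tested SLC1 genes, SLC1A5 and SLC1A1 were lower after CREM siRNA and SLC1A3 was higher. The SLC1 sum thus followed SLC1A4, and its direction does not hold for each member. The SLC38 genes summed to 142 ± 9.73 RPKM after CREM siRNA and 145 ± 2.28 RPKM after Control siRNA, with overlapping libraries, and the SLC38 sum was higher after CREM siRNA by 1.12 and 1.13 times with the GAPDH and reference gene scalings. SLC36 and SLC43 were small throughout, at 8.3 and 7.0 RPKM after CREM siRNA and 9.72 and 7.68 RPKM after Control siRNA, and the libraries of both families overlapped with those 2 scalings.

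**Figure D2:**
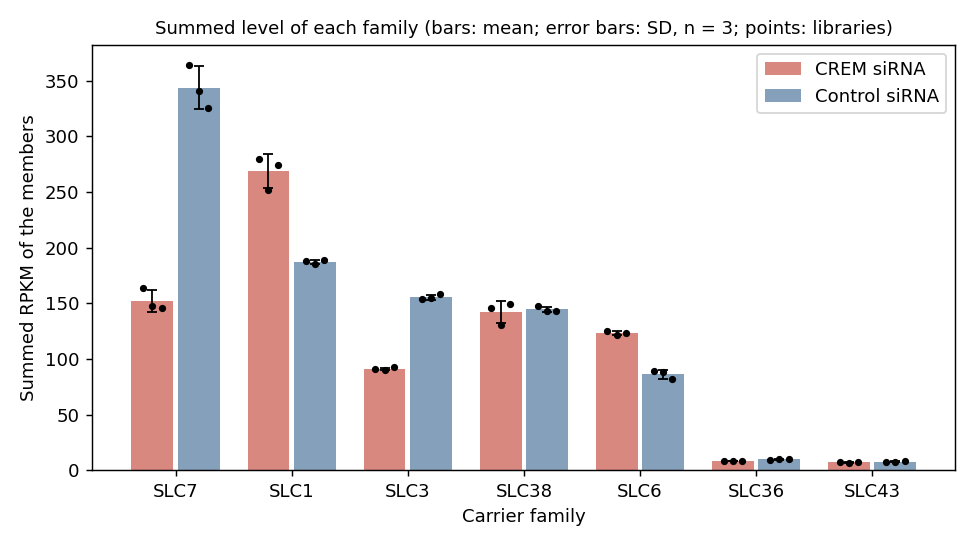
Summed RPKM of the genes of each family after CREM siRNA (left bars) and Control siRNA (right bars); bars are means, error bars SD over 3 libraries and points the libraries. The SLC7 bars (152 and 344 RPKM) and the SLC1 bars (269 and 187 RPKM) lie in opposite order, and the SLC38 bars (142 and 145 RPKM) are close, with overlapping libraries. SLC1A4 was the largest part of the SLC1 bar after CREM siRNA, and SLC7A5 of the SLC7 bar after Control siRNA.

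The heavy chain and its main partners fell together, and among them the light chain SLC7A5 had the largest log2 fold change. SLC7A5, which encodes LAT1, the exchanger that brings leucine and other large neutral amino acids into the cell, lies on chromosome 16 (87830023 to 87869507, GRCh38). It was at 73.5, 67.1 and 66.4 RPKM in the CREM siRNA libraries, against 262, 241 and 239 RPKM in the Control siRNA libraries. All CREM siRNA libraries lay far below all Control siRNA libraries, with 27.9% of the control mean left. SLC7A5 fell by 1.83 on the log2 scale, with an SE (standard error) of 0.0568 and an adjusted p = 3.27e-10 from limma. SLC3A2 on chromosome 11 (62856109 to 62888860), which encodes CD98hc, the heavy chain that holds the light chains at the cell surface, was at 90.5, 90.4 and 92.3 RPKM in the CREM siRNA libraries and at 154, 154 and 158 RPKM in the Control siRNA libraries. The groups did not overlap, and SLC3A2 fell less than its partner, to 58.6% of the control mean (log2 fold change -0.76, SE 0.0428, adjusted p = 3.67e-08 from limma).

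The RPKM of SLC7A5 over that of SLC3A2 within a library was 0.811, 0.743 and 0.720 after CREM siRNA, against 1.70, 1.56 and 1.51 after Control siRNA. The light chain was thus below the heavy chain in every CREM siRNA library and above it in every Control siRNA library. All 7 light chain genes together came to 0.991 ± 0.0615 times SLC3A2 after CREM siRNA and to 1.80 ± 0.121 times after Control siRNA (SD, n = 3 each). SLC7A11, the cystine and glutamate exchanger xCT that supplies cysteine for glutathione, was at 15.5, 14.7 and 13.4 RPKM in the CREM siRNA libraries, against 28.3, 28.7 and 21.7 RPKM in the Control siRNA libraries. It fell to 55.4% of the control mean with no overlap (log2 fold change -0.80, SE 0.103, adjusted p = 1e-04 from limma). Its ratio to SLC3A2 overlapped between the groups, at 0.160 ± 0.0132 after CREM siRNA and 0.169 ± 0.0273 after Control siRNA.

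The other light chains were low. SLC7A6, an exchanger of cationic for neutral amino acids, was at 5.88 ± 0.147 RPKM after CREM siRNA and 4.76 ± 0.262 RPKM after Control siRNA and rose by 0.26 on the log2 scale (adjusted p = 0.00256 from limma), the one of 3 tested light chains that was higher. Its exons overlap those of SLC7A6OS on the opposite strand for up to 3371 bases, and no source used here says whether reads were counted by strand. The same limit holds for SLC3A1, SLC1A5, SLC7A11, SLC38A10, SLC38A8, SLC7A5, SLC38A6, SLC6A6 and SLC6A9, whose exons share between 219 and 1247 bases with a gene on the opposite strand, and SLC3A1 and SLC43A3 also share 462 and 300 bases with a gene on their own strand. SLC7A7, a close relative of SLC7A6, averaged 0.406 RPKM after CREM siRNA and 0.397 RPKM after Control siRNA and did not pass in edgeR (log2 fold change -0.0024, adjusted p = 0.995). SLC3A1, the second heavy chain, which pairs with the kidney light chain SLC7A9, held 9, 10 and 10 reads in the CREM siRNA libraries and 5, 5 and 16 reads in the Control siRNA libraries. The heavy chain mRNA of these cells was therefore almost wholly SLC3A2 in both groups. SLC7A9 itself had at most 3 reads in a library.

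Of 3 pseudogenes that resemble members, SLC7A5P2 averaged 3.04 ± 0.752 RPKM after CREM siRNA and 10.4 ± 1.88 RPKM after Control siRNA (log2 fold change -1.50, adjusted p = 0.000127 from limma). SLC7A5P2 and SLC7A5P1 copy parts of SLC7A5, and how the counting treated reads that match several copies is not given, so that reads of SLC7A5 and of its copies cannot be told apart. Both pseudogenes were far below SLC7A5 in RPKM.

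**Figure D3:**
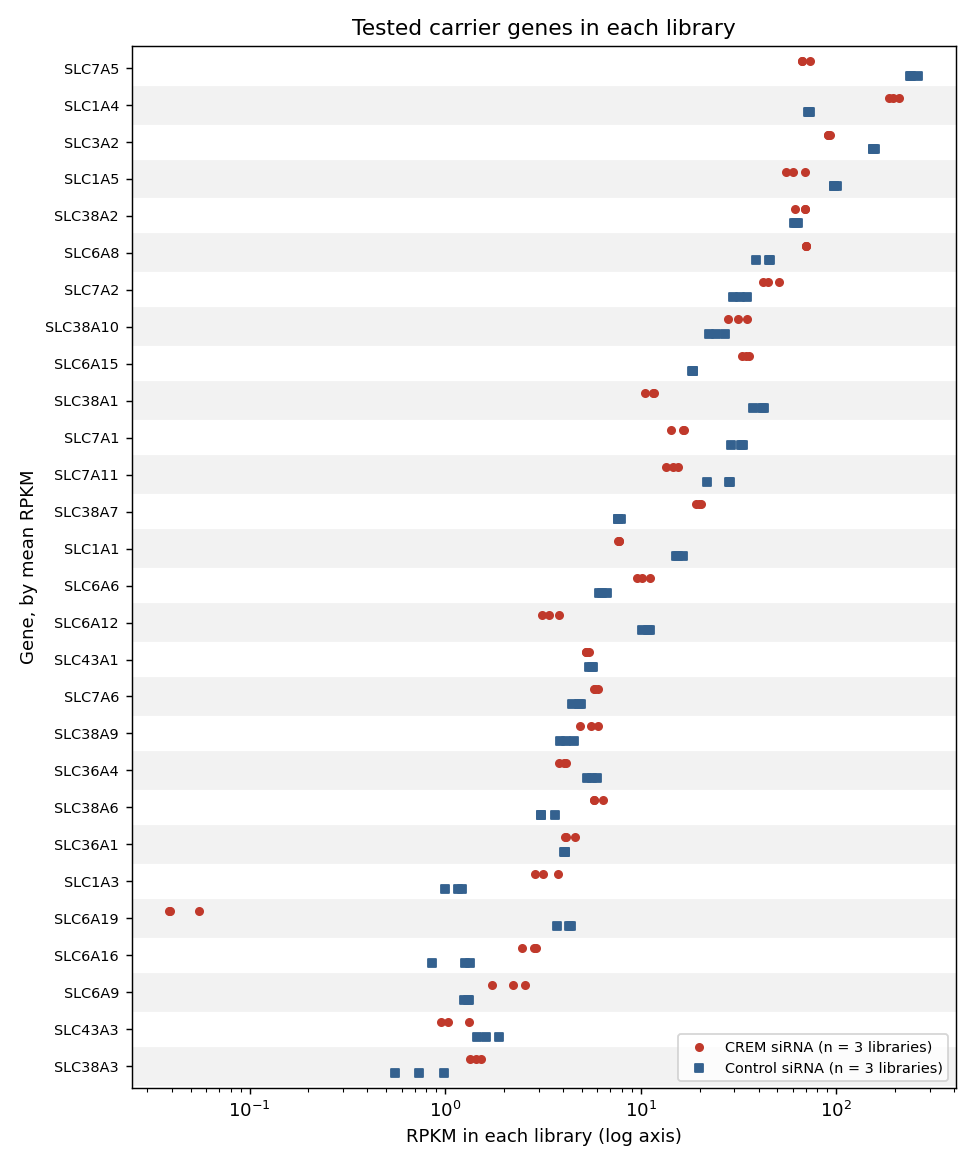
RPKM of the 28 tested carrier genes in each library on a log axis, with CREM siRNA libraries as circles and Control siRNA libraries as squares, ordered by mean RPKM. SLC7A5 lies at 66.4 to 73.5 RPKM after CREM siRNA and at 239 to 262 RPKM after Control siRNA, SLC1A4 lies the other way round, and SLC6A19 is the one gene far to the left of its control points.

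The 2 cationic carriers, which bring in arginine, lysine and ornithine, moved in opposite directions. SLC7A1, the broadly expressed arginine carrier CAT1, was at 16.5, 14.2 and 16.6 RPKM in the CREM siRNA libraries, against 32.6, 33.3 and 29.1 RPKM in the Control siRNA libraries. It fell to 49.8% of the control mean without overlap (log2 fold change -0.96, SE 0.0710, adjusted p = 3.58e-07 from limma). SLC7A2, which encodes CAT2, was at 51.1, 44.8 and 42.3 RPKM in the CREM siRNA libraries and at 35.1, 32.1 and 29.7 RPKM in the Control siRNA libraries. It rose 1.43-fold, and its lowest CREM siRNA library stood above its highest Control siRNA library (log2 fold change 0.50, SE 0.0775, adjusted p = 0.000178 from limma). SLC7A2 over SLC7A1 was 3.09, 3.15 and 2.55 in RPKM after CREM siRNA, against 1.08, 0.965 and 1.02 after Control siRNA. The summed level of both carriers overlapped between the groups, at 61.8 ± 5.03 RPKM after CREM siRNA and 64.0 ± 4.60 RPKM after Control siRNA. Downstream of arginine uptake, ARG2, the mitochondrial arginase that makes ornithine, was at 1.85 ± 0.104 RPKM after CREM siRNA and 7.73 ± 0.564 RPKM after Control siRNA (log2 fold change -1.62, adjusted p = 3.34e-09 from limma). ODC1, which turns ornithine into putrescine, was at 143 ± 1.66 RPKM after CREM siRNA and 1209 ± 4.05 RPKM after Control siRNA (log2 fold change -3.07, adjusted p = 2.97e-12 from limma).

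The neutral exchangers of the SLC1 family moved in opposite directions, as the cationic carriers did. SLC1A4 on chromosome 2 (64988479 to 65023865), which encodes ASCT1, a sodium-dependent exchanger of alanine, serine, cysteine and threonine, was at 209, 186 and 194 RPKM in the CREM siRNA libraries, against 73.1, 71.3 and 72.2 RPKM in the Control siRNA libraries. It rose 2.72-fold, which on the log2(RPKM + 1) scale was the largest rise among the tested carrier genes, although by level SLC1A3 rose more (log2 fold change 1.43, SE 0.0520, adjusted p = 1.12e-09 from limma). SLC1A5, which encodes ASCT2, its paralog with a preference for glutamine, was at 59.7, 55.0 and 69.3 RPKM in the CREM siRNA libraries and at 97.1, 96.9 and 100.4 RPKM in the Control siRNA libraries. It fell to 62.5% of the control mean without overlap (log2 fold change -0.68, SE 0.0735, adjusted p = 1.01e-05 from limma). SLC1A4 over SLC1A5 in RPKM was 3.5, 3.38 and 2.80 after CREM siRNA, against 0.753, 0.736 and 0.720 after Control siRNA. In every library after CREM siRNA SLC1A4 was thus above SLC1A5 per length, and in every library after Control siRNA it was below.

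The glutamate carriers of the same family also parted. SLC1A3 on chromosome 5 (36596588 to 36688334), which encodes EAAT1, best known from astrocytes, was at 3.15, 2.88 and 3.78 RPKM in the CREM siRNA libraries, against 0.993, 1.16 and 1.22 RPKM in the Control siRNA libraries. It rose 2.91-fold by the level, with no overlap (log2 fold change 1.00 on the log2(RPKM + 1) scale, which understates low genes, SE 0.0875, adjusted p = 1.44e-06 from limma). SLC1A1, which encodes the neuronal and epithelial carrier EAAT3, was at 7.72 ± 0.0531 RPKM after CREM siRNA and 15.7 ± 0.635 RPKM after Control siRNA and fell by 0.94 on the log2 scale (adjusted p = 3.15e-08 from limma). SLC1A2, the main glutamate carrier of the brain, had 3, 0 and 1 reads in the CREM siRNA libraries and none in the Control siRNA libraries.

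Of the SLC38 carriers, the glutamine loader SLC38A1 fell steeply and most of the others rose. SLC38A1 on chromosome 12 (46183063 to 46269043), which encodes SNAT1, was at 11.7, 10.5 and 11.5 RPKM in the CREM siRNA libraries, against 42.6, 41.7 and 37.5 RPKM in the Control siRNA libraries. It fell to 27.7% of the control mean, with every CREM siRNA library under every Control siRNA library (log2 fold change -1.77, SE 0.0621, adjusted p = 8.55e-10 from limma). SLC38A2 on the same chromosome (46358188 to 46372773), which encodes SNAT2, a carrier known to respond to amino acid lack, was at 69.1, 61.2 and 69.3 RPKM in the CREM siRNA libraries and at 63.9, 62.3 and 60.9 RPKM in the Control siRNA libraries. These libraries overlapped and the gene did not pass the test (log2 fold change 0.09, SE 0.0563, adjusted p = 0.172 from limma). With libraries scaled by GAPDH the log2 fold change was 0.28 and passed (adjusted p = 0.00261 from limma), as it did with reference genes (0.29), and without CREM siRNA replicate 2 (0.15, adjusted p = 0.0244 from limma). SLC38A2 over SLC38A1 in RPKM was 5.92, 5.83 and 6.03 after CREM siRNA, against 1.5, 1.5 and 1.63 after Control siRNA. The genes lie 89.1 kb apart.

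SLC38A7 on chromosome 16 (58665109 to 58684770), which encodes SNAT7, a carrier that lets glutamine out of lysosomes, was at 20.3, 19.1 and 19.9 RPKM in the CREM siRNA libraries, against 7.61, 7.89 and 7.61 RPKM in the Control siRNA libraries. It rose 2.56-fold with a tight spread in both groups (log2 fold change 1.25, SE 0.0502, adjusted p = 2.35e-09 from limma). SLC38A9, the arginine-sensing carrier of the lysosome, was at 5.51 ± 0.598 RPKM after CREM siRNA and 4.19 ± 0.333 RPKM after Control siRNA and rose by 0.32 on the log2 scale (adjusted p = 0.00368 from limma). SLC38A10 rose by 0.35 (adjusted p = 0.0045 from limma), with 28 to 34.8 RPKM after CREM siRNA and 22.2 to 26.9 RPKM after Control siRNA. SLC38A6 rose by 0.71 (adjusted p = 5.38e-06 from limma), with 6.0 ± 0.379 RPKM after CREM siRNA and 3.28 ± 0.322 RPKM after Control siRNA. SLC38A3, the glutamine carrier SNAT3 of liver, kidney and brain, was low at 1.43 ± 0.0959 RPKM after CREM siRNA and 0.758 ± 0.216 RPKM after Control siRNA and rose by 0.48 (adjusted p = 0.000812 from limma). Thus 5 of the 7 tested SLC38 genes rose, against 36.6% of all genes tested, while SLC38A1 fell and SLC38A2 did not pass. This count depends on the filter, since SLC38A3 reached the RPKM minimum only after CREM siRNA. SLC38A8, at 0.0578 RPKM after CREM siRNA and 1.08 RPKM after Control siRNA, was left out by the filter.

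Proton-coupled and facilitative carriers were low, and no more than 1 tested gene of either family passed. SLC36A1, which encodes PAT1, a proton-coupled exporter of small amino acids at the lysosome, was at 4.63, 4.14 and 4.11 RPKM in the CREM siRNA libraries, against 4.06, 4.09 and 4.11 RPKM in the Control siRNA libraries. It did not pass the test (log2 fold change 0.06, SE 0.0624, adjusted p = 0.432 from limma), and its closest libraries differed only beyond the digits printed, although with the reference gene scaling the log2 fold change of 0.22 passed (adjusted p = 0.0099 from limma). SLC36A4, its relative with high affinity for proline and tryptophan and by mean RPKM the highest of its family, was at 3.82, 4.12 and 4.06 RPKM in the CREM siRNA libraries and at 5.30, 5.95 and 5.61 RPKM in the Control siRNA libraries. The groups did not overlap, and SLC36A4 fell by 0.41 (adjusted p = 0.000145 from limma). SLC43A1, which encodes LAT3, a sodium-independent carrier of leucine and other large neutral amino acids, was at 5.42, 5.24 and 5.22 RPKM in the CREM siRNA libraries and at 5.61, 5.44 and 5.72 RPKM in the Control siRNA libraries. The groups did not overlap by a narrow margin, and the difference did not pass (log2 fold change -0.07, adjusted p = 0.299 from limma). Its sign was positive with the GAPDH and reference gene scalings, at 0.099 and 0.10, where it did not pass either. SLC43A3, a nucleobase carrier in spite of its family, was at 1.10 ± 0.199 RPKM after CREM siRNA and 1.65 ± 0.213 RPKM after Control siRNA and fell by 0.33 (adjusted p = 0.00622 from limma).

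The SLC6 family, which besides amino acids carries transmitters, osmolytes and creatine, held both the steepest fall and a group of genes that rose. SLC6A19 on chromosome 5 (1201595 to 1225111), which encodes B0AT1, the neutral amino acid carrier of intestine and kidney, was at 0.0392, 0.0554 and 0.0388 RPKM in the CREM siRNA libraries, against 4.39, 4.30 and 3.73 RPKM in the Control siRNA libraries. In reads this was 6, 7 and 5 after CREM siRNA, against 394, 544 and 459 after Control siRNA. The level fell to 1.07% of the control mean, with no more than 7 reads in any CREM siRNA library (log2 fold change -2.30, SE 0.0739, adjusted p = 4.22e-10 from limma). The pseudocount shrinks that value, and edgeR, fitted to the reads, gave a log2 fold change of -6.52 (adjusted p = 2.39e-13). SLC6A15, which encodes B0AT2, a carrier of branched-chain amino acids and proline, was at 34.4 ± 1.45 RPKM after CREM siRNA and 18.5 ± 0.103 RPKM after Control siRNA and rose by 0.86 on the log2 scale (SE 0.0479, adjusted p = 3.53e-08 from limma). The 2 related neutral carriers thus went opposite ways, SLC6A15 higher and SLC6A19 lower.

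The other tested SLC6 genes, which carry creatine, osmolytes or glycine or have no known substrate, moved in both directions. SLC6A8 on chromosome X (153687926 to 153696593), the creatine carrier and the most abundant SLC6 gene, was at 69.7, 69.9 and 70.0 RPKM in the CREM siRNA libraries, against 45.3, 45.7 and 38.8 RPKM in the Control siRNA libraries. It rose without overlap, with CREM siRNA libraries close to each other (log2 fold change 0.68, SE 0.0623, adjusted p = 2.14e-06 from limma). SLC6A6, the taurine carrier, was at 10.3 ± 0.810 RPKM after CREM siRNA and 6.38 ± 0.322 RPKM after Control siRNA and rose by 0.61 (adjusted p = 8.57e-06 from limma). SLC6A12 on chromosome 12 (183848 to 214157), the betaine and GABA carrier BGT1, was at 3.41, 3.81 and 3.12 RPKM in the CREM siRNA libraries and at 10.9, 10.2 and 11.2 RPKM in the Control siRNA libraries. It fell to 32.0% of the control mean, far outside the spread of either group (log2 fold change -1.40, SE 0.0704, adjusted p = 1.45e-08 from limma). SLC6A9, the glycine carrier GLYT1, rose by 0.46 (adjusted p = 0.00101 from limma), with 2.17 ± 0.406 RPKM after CREM siRNA and 1.29 ± 0.0406 RPKM after Control siRNA. SLC6A16, an orphan of the family, rose by 0.80 (adjusted p = 2.15e-05 from limma), with 2.74 ± 0.245 RPKM after CREM siRNA and 1.16 ± 0.265 RPKM after Control siRNA.

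**Figure D4:**
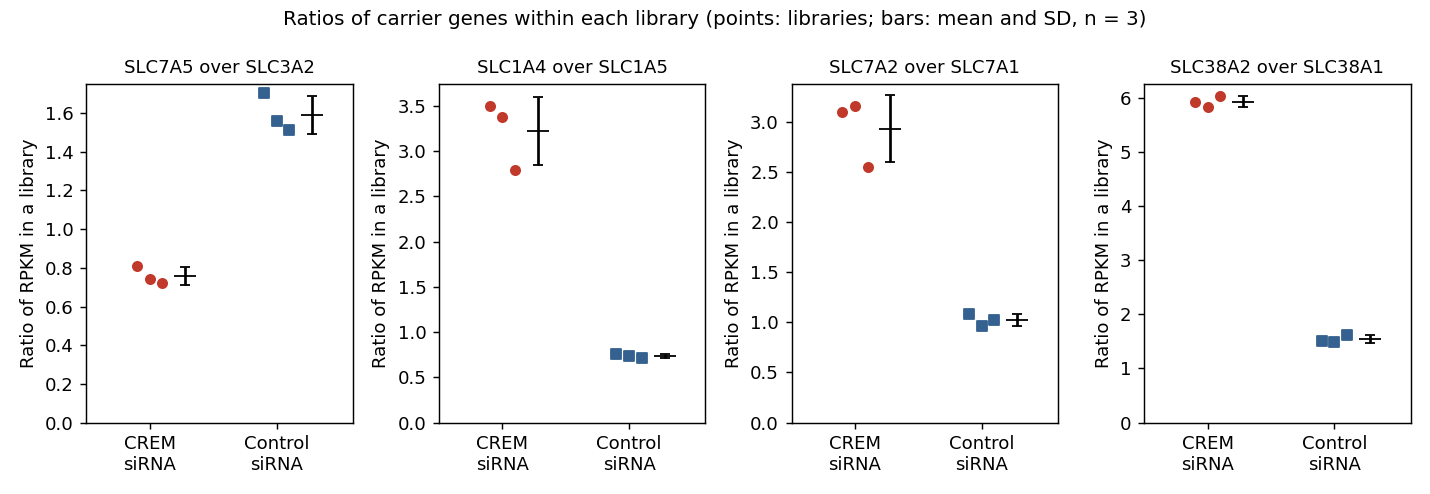
Ratio of RPKM between related carriers within each library, with CREM siRNA on the left and Control siRNA on the right of each panel; points are libraries, and bars the mean and SD of 3. SLC7A5 over SLC3A2 is 0.758 after CREM siRNA and 1.59 after Control siRNA, while the other 3 ratios are 2.93 to 5.93 after CREM siRNA and 0.736 to 1.54 after Control siRNA.

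Of the 22 carrier genes below the RPKM minimum, none held more than 186 reads in a library. Reads recovered from the CPM values allowed edgeR to test 7 of them, and 5 passed an adjusted p under 0.05, against 72.2% of all genes that edgeR tested. This count depends on the filter of edgeR, which let in SLC38A8, SLC6A3 and SLC6A5 only through the Control siRNA libraries, where they were higher. Of the genes that passed, SLC43A2, which encodes LAT4, a relative of SLC43A1, was the one that was higher, with 186, 140 and 143 reads in the CREM siRNA libraries and 62, 116 and 115 reads in the Control siRNA libraries (edgeR log2 fold change 0.42, adjusted p = 0.0134), although limma with no filter did not call it (adjusted p = 0.0658). SLC7A8, the light chain LAT2, held 42, 25 and 53 reads in the CREM siRNA libraries, against 90, 95 and 117 reads in the Control siRNA libraries, and was lower (edgeR log2 fold change -1.60, adjusted p = 1.53e-05). SLC38A8, a glutamine carrier of the retina and brain, held 4, 4 and 0 reads after CREM siRNA and 34, 46 and 41 reads after Control siRNA, and was lower too (edgeR adjusted p = 6.05e-07). Since the number of reads per library differs, these reads are to be read against the library totals, and the CPM are drawn in the plot of genes with few reads.

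SLC6A3, the dopamine carrier, held 2, 3 and 1 reads in the CREM siRNA libraries, against 11, 13 and 20 reads in the Control siRNA libraries (edgeR adjusted p = 6.09e-05). SLC6A5, the glycine carrier GLYT2, held 2, 0 and 1 reads in the CREM siRNA libraries, against 12, 11 and 13 reads in the Control siRNA libraries (edgeR adjusted p = 7.99e-05). Both were lower after CREM siRNA, and both were scarce in either group. SLC6A13, a GABA carrier, held 47, 34 and 28 reads after CREM siRNA and 23, 37 and 35 reads after Control siRNA and did not pass (edgeR log2 fold change -0.07, adjusted p = 0.784). It lies 6.46 kb from SLC6A12. Of the rest, SLC38A11 and SLC7A10 had no read in any library, and 12 genes had between 1 and 10 reads at most in a library. These 12 were SLC38A5, SLC7A9, SLC7A4, SLC7A14, SLC6A4, SLC6A11, SLC6A14, SLC6A17, SLC6A20, SLC36A2, SLC36A3 and SLC1A2. None of them was tested by edgeR. With no filter limma called 1 of them, SLC38A5, a glutamine carrier with 4, 4 and 1 reads after CREM siRNA and 7, 9 and 9 reads after Control siRNA (log2 fold change -0.15, adjusted p = 0.0019), which DESeq2 did not call (adjusted p = 0.0624). For the other 11 no difference was detectable at this depth.

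**Figure D5:**
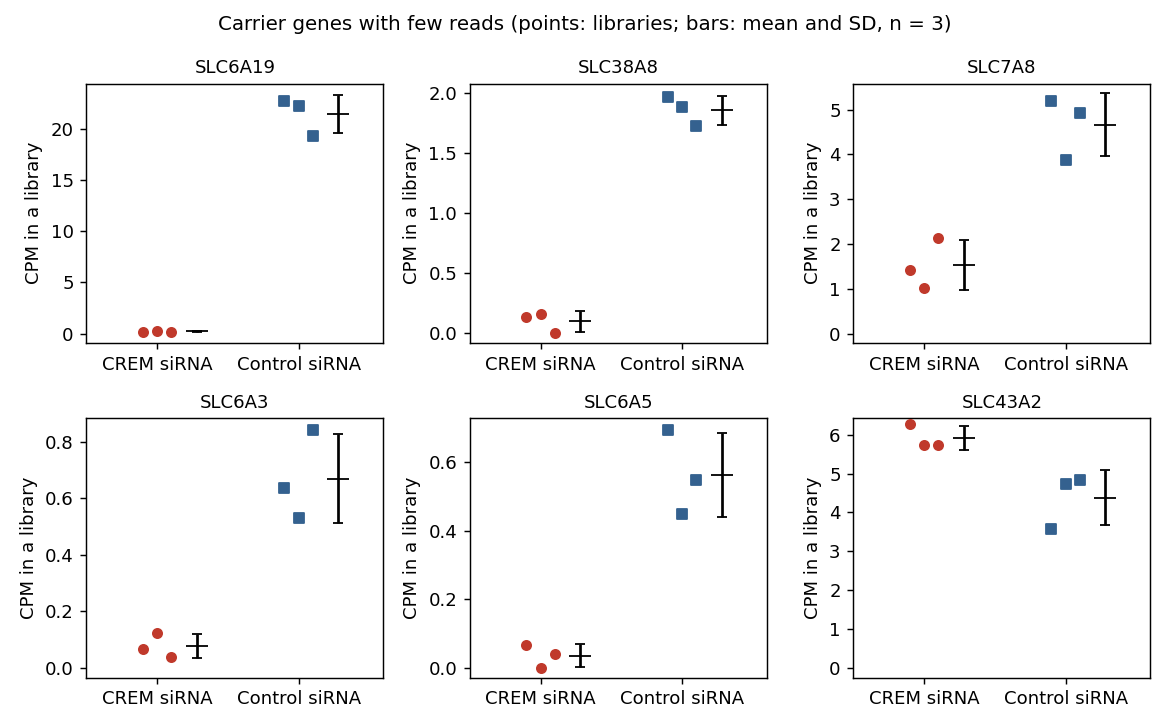
CPM of 6 carrier genes with few reads after CREM siRNA (left) and Control siRNA (right); points are libraries, and bars the mean and SD of 3. In 5 panels every CREM siRNA library is below every Control siRNA library, and in that of SLC43A2 every CREM siRNA library is above.

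The genes around the carriers were read from 4 lists. Of 24 genes of the amino acid response, the program that cells run through EIF2AK4 and ATF4 when amino acids are short, 23 were tested, of which 11 were higher, 11 lower and 1 did not pass, with a median log2 fold change of 0.30 against 0.00 over all genes tested, of which 73.4% passed. ATF3 rose to 23.1 ± 3.19 RPKM after CREM siRNA, against 4.58 ± 0.232 RPKM after Control siRNA (log2 fold change 2.10, adjusted p = 5.01e-09 from limma), WARS1 rose by 1.17 and ATF5 by 1.07. PSPH, an enzyme of serine synthesis, fell by 0.82 (adjusted p = 1.09e-07 from limma), and the translation repressor EIF4EBP1 fell by 0.93 and SHMT2 by 0.49. ATF4 itself, named here outside the rule because the program runs through it, was at 622 ± 42.8 RPKM after CREM siRNA and 889 ± 19.1 RPKM after Control siRNA (log2 fold change -0.51, adjusted p = 1.58e-05 from limma). The list thus moved both ways.

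Of 30 genes of amino acid sensing at the lysosome, where RAG GTPases and their regulators bring mTORC1 to the membrane, 29 were tested, of which 12 were higher, 10 lower and 7 did not pass, with a median log2 fold change of 0.13. The share that passed, 75.9%, was close to the 73.4% of all genes tested. RHEB, the GTPase that switches on mTORC1, was at 25.1 ± 0.299 RPKM after CREM siRNA and 91.3 ± 5.63 RPKM after Control siRNA (log2 fold change -1.82, adjusted p = 1.78e-10 from limma), LAMTOR3 fell by 0.86 and FNIP2 by 0.80. SESN3, a sestrin that restrains the pathway, was at 11.1 ± 0.619 RPKM after CREM siRNA and 3.15 ± 0.217 RPKM after Control siRNA (log2 fold change 1.54, adjusted p = 3.44e-09 from limma), FNIP1 rose by 0.89 and RRAGB by 0.73.

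Of 16 amino acid carriers outside the 7 families, 10 were tested, of which 7 were higher, 2 lower and 1 did not pass, with a median log2 fold change of 0.26, against 73.4% that passed, 36.6% higher and 36.7% lower, over all genes tested. CTNS, which exports cystine from lysosomes, was at 14.6 ± 0.246 RPKM after CREM siRNA and 6.55 ± 0.586 RPKM after Control siRNA and rose by 1.05 (adjusted p = 6.45e-08 from limma). SLC66A1, the lysosomal exporter of cationic amino acids, rose by 0.81 (adjusted p = 3.4e-07 from limma) and SLC25A29, a mitochondrial carrier of basic amino acids, by 0.95. SLC25A15, the mitochondrial ornithine carrier, fell by 0.87 (adjusted p = 9.97e-07 from limma) and SLC15A4 fell by 0.28.

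Of 11 genes around glutathione, for which SLC7A11 supplies cystine, 9 were tested, of which 3 were higher, 5 lower and 1 did not pass, with a median log2 fold change of -0.24, beside the same 73.4% of all genes tested. CTH, which makes cysteine from cystathionine, was at 19.1 ± 0.715 RPKM after CREM siRNA and 78.2 ± 1.5 RPKM after Control siRNA (log2 fold change -1.98, adjusted p = 4.03e-11 from limma). CBS, the step before it, fell by 0.76 (adjusted p = 2.81e-06 from limma) and GPX4 by 0.28. GSR rose by 0.74 (adjusted p = 5.84e-07 from limma), and GCLC and GCLM, the subunits of the first enzyme of glutathione synthesis, rose by 0.51 and 0.35. GSS and GGCT, named here outside the rule, fell by 0.24 and 0.29. After CREM siRNA CTH, CBS, GPX4, GSS, GGCT and SLC7A11 were thus lower, and GCLC, GCLM and GSR higher.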

How the data were processed

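RNA of CHL-1 cells 48 h after transfection was sequenced in 3 CREM siRNA and 3 Control siRNA libraries from a stranded mRNA kit. CPM and RPKM of 21625 genes were deposited by the authors, whose processing notes name R 3.6.1 and hg38. No source used here names the aligner, the counter, the annotation or the treatment of multi-mapped reads. Of the deposited CPM, 100% of values lay within 0.001 of a whole read times 1 step per library, and RPKM was CPM over 1 whole length per gene.

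The main test was limma 3.58.1 (trend and robust eBayes, R 4.3.3) on log2(RPKM + 1) for the 12407 genes that averaged 1 RPKM or more. Its p-values were adjusted over all of them by Benjamini-Hochberg, with a threshold of 0.05. The study's own test was a t-test per gene. On recovered reads, the quasi-likelihood test of edgeR 4.0.16 (TMM, filterByExpr) and, separately, DESeq2 1.42.0 were alternatives; the others were the pseudocount, the filter, the scaling, the CPM table, the replicate block and leaving out each library. The tests were checked on simulated data.

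The families and lists were proposed with earlier results of these data known, although the rule for members uses symbols only. Values in every library were given for members with a log2 fold change of at least 1 in size that passed, for the member of highest mean RPKM in each family and for both heavy chains. Of each list up to 3 genes per direction with the lowest adjusted p were named, by means or changes. Values per library of other members, the ratios between members and the pseudogenes, and leaving out replicate 3 of both groups together, were added after their values were seen. Gene coordinates and promoter windows are from RefSeq for GRCh38.p14, exon overlaps from GENCODE. Of the lysosomal list 29 of 30 genes matched a symbol.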

Additional observations from a re-analysis of the deposited data

How the results depend on the processing

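Of the 28 tested carrier genes, 25 kept their call under each of the 17 alternatives that tested them, and SLC38A2, SLC36A1 and SLC43A1 were the exceptions, as given with their values above. SLC43A1 turned to 0.099 with the GAPDH scaling and 0.10 with the reference gene scaling. With a filter of 5 RPKM, 18 carrier genes were tested, of which 8 were higher and 8 lower, since fewer genes pass that filter, and with no filter 48 were tested, of which 14 were higher and 16 lower. The number lower by at least 1 was 10 with edgeR and 10 with DESeq2, against 4. These tests work on reads without the pseudocount of 1 RPKM and took in 35 and 48 of the genes. Leaving out each library in turn gave 14 to 15 genes higher and 11 lower, with 2 to 3 higher by at least 1 and 4 to 5 lower by at least 1. The columns of both groups number experiments 1 to 3, but no source used here says that equal numbers mark a shared day. The replicate block stayed out of the main test because such a pairing is not stated. The correlations of same-numbered deviations were 0.274, -0.0350 and 0.136, and CREM siRNA replicate 2 correlated best with Control siRNA replicate 3 (0.186). However, replicate 3 of both groups shared reads of MLANA, TYR and PMEL. With the replicate block 14 genes were higher and 11 lower, as without it. For 12 of the genes no library held more than 10 reads, and the 6 libraries come from 1 cell line.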

Other observations

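SLC6A19 and SLC6A3, which were both lower after CREM siRNA, lie 168 kb apart on chromosome 5, and the genes between them were looked at after these values were seen. TERT, the catalytic subunit of telomerase, held 13, 8 and 6 reads in the CREM siRNA libraries, against 91, 132 and 130 reads in the Control siRNA libraries (edgeR log2 fold change -3.96, adjusted p = 5.87e-10). CLPTM1L, the other gene between them with a measured value, was at 39.0 RPKM after CREM siRNA and 55.6 RPKM after Control siRNA (log2 fold change -0.50, adjusted p = 1.6e-06 from limma). All 4 genes were lower after CREM siRNA. Of these, SLC6A19 and CLPTM1L were tested with limma, in which 36.7% of all genes tested were lower. SLC6A3 and TERT were below the RPKM minimum and were lower in edgeR, in which 72.2% of all genes tested passed in either direction. SLC6A19 and SLC6A3 were picked because they were lower, and genes outside this stretch were not looked at. Whether the stretch changed as a unit was not tested.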
